A study of Homo sapiens with 2 samples.

Results

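The interferon response genes described here are 38 genes that cells switch on, or use, to answer interferon, and they were taken by gene symbol, from a list made with earlier results of these data known. All 38 were found among the 23608 gene rows of the deposited table. They were measured in SW13, an established cell line grown from a human adenocarcinoma of the adrenal gland, by 1 RNA sequencing library and 1 ribosome profiling library. Both libraries came from cells that carried the plasmids Add2-Mhrt779 and Add2-Hotair, which encode murine long non-coding RNAs. For each, 10000000 cells at 80% confluence had received 5 µg of plasmid with Lipofectamine 2000 and were collected after 48 h. No library of untransfected cells was analysed here, so the values give levels in transfected cells and no response to transfection or to interferon. There were no replicates, and no difference below has a replicate error.

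Ribosome profiling sequences the RNA fragments that ribosomes protect from nuclease, and RNA sequencing measures the whole RNA, so the ratio of both libraries describes how much of each RNA was recovered with ribosomes. The levels are called total RNA (the RNA sequencing library) and footprints (the ribosome profiling library) from here on. Both are in FPKM, fragments scaled by transcript length and by the number of mapped fragments. Vimentin (VIM), a filament protein of this line, had 490 FPKM in total RNA and 707 FPKM in footprints. SMARCA4 and SMARCA2, chromatin remodelling ATPases that this line is known to express little, had 3.99 and 0.677 FPKM and 1.72 and 1.75 FPKM. All 9 genes on a list of adrenal cortex steroid synthesis were listed at 0 in both libraries, so the tissue of origin was not visible in them. Of 7 leukocyte markers, 5, the common leukocyte antigen PTPRC among them, were listed at 0 in both libraries, and their summed level was 0 FPKM in total RNA and 2.99 FPKM in footprints. Of 5 fibroblast markers, 2 were listed at 0 in both, with sums of 0.387 and 1.47 FPKM.

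Interferons are secreted proteins that warn cells of a virus. Type I interferons bind a receptor whose kinases phosphorylate STAT proteins, among them STAT2, which join IRF9 and bind an interferon-stimulated response element in the promoters of interferon-stimulated genes. The products of these genes sense viral RNA, block translation or virus entry, tag proteins with the ubiquitin-like protein ISG15 and feed antigen presentation. Many of them are also transcribed at a low level without interferon. Rows for 18 interferon genes were present in the table, and all 18 were listed at 0 in both libraries.

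The promoters show what many of these genes share beside their names. The core letters of the response element, GAAANNGAAA or TTTCNNTTTC on the other strand, were searched in RefSeq promoters of build GRCh38.p14 that run from 250 bases before the transcript start to 50 after it. The core was found in 23 of 39 promoters of the 30 genes that had an entry (59.0%), against 1255 of 35116 promoters of all genes (3.57%). Promoters of the same gene can overlap and share a core, as those of IFI27 and IFI44 do. Counted by gene, 19 of the 30 had a core, against 1195 of 27305 genes. The following 30-base windows, written 5′ to 3′ on the gene's own strand with the core in capitals, belong to the genes whose values lead the results below.
ISG15: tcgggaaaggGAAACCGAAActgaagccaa
IFI6: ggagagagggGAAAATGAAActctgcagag
B2M: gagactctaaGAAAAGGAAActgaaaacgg
IFITM1: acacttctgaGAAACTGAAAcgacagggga
IFITM3: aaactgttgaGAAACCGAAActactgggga
HERC5: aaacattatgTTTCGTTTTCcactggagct
IFIT1: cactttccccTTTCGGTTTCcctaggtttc

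These windows lie at chr1:1013380-1013409 on the plus strand for ISG15, chr1:27672329-27672358 on the minus strand for IFI6 and chr15:44711363-44711392 on the plus strand for B2M. Those of the IFITM genes lie at chr11:314024-314053 on the plus strand for IFITM1 and chr11:320876-320905 on the minus strand for IFITM3. The HERC5 window is chr4:88457035-88457064 and the IFIT1 window chr10:89392510-89392539, both on the plus strand with the core on the other strand. The ISG15 and B2M promoters each held a further core that overlaps the one shown, and the IFI6 and HERC5 promoters each held 3 cores in all. The letters TTCNNNGAA, a palindrome that STAT dimers bind, were in 10 of the 39 promoters (25.6%), against 7.66% of all promoters. Counted by gene, they were in 9 of the 30, against 2560 of 27305 genes. No core was found in the windows searched for ADAR, SAMHD1, STAT2, TRIM25, DDX58, IFI16, IFI30, IFI35, IRF1, IRF9 and OAS1. A match describes letters in a window and is no measure of binding.

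The deposited values hold a trace of the fragment numbers behind them. In 389 rows the footprint FPKM was 1.56 times the total RNA FPKM, and 5190 of the 10894 rows above 0 in both libraries (47.6%) had 1.56 times a ratio of small whole numbers, with an RNA number up to 40 and a relative tolerance of 2e-05. The same number of fragments in both libraries therefore gave 1.56-fold more FPKM in footprints. A smallest pair of whole numbers was found for 18 of the 31 interferon response genes above 0 in both libraries and none for the other 13. The true numbers may be a multiple of such a pair, and some pairs may match by accident. Where the RNA number was at least 5, an exact (Clopper-Pearson) 95% interval of the deposited fold was computed from the pair. It covers counting error only, since fragments amplified by PCR without molecular identifiers are not independent molecules.

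The interferon response genes lay higher in footprints than in total RNA with few exceptions. Of the 38, 31 were above 0 in both libraries, 5 were listed at 0 in both (IFI16, IFI27, MX2, OAS1 and OAS2) and 2 were listed at 0 in total RNA alone (IFI44 and IFI44L). Of the 31, 29 had the higher FPKM in footprints, against 46.8% of all rows above 0 in both, and the exceptions were ADAR and USP18. By the smallest fragment pairs of 18 genes, 12 had more fragments in footprints, 2 the same number and 4 fewer. The shares of all rows by fragment number were not computed. The FPKM of the 38 summed to 375.5 in total RNA and 1368 in footprints, 3.64-fold more. All rows summed to 1.847e+06 and 6.457e+06 FPKM, and the protein-coding rows to 144789 and 188459 FPKM. The summed fold thus does not by itself set the group apart from all rows. The median of the 31 was 3.93 FPKM in total RNA and 9.90 FPKM in footprints. The 3 highest genes in total RNA (IFITM3, B2M and ISG15) held 53.5% of its sum, and the 3 highest in footprints (ISG15, B2M and IFI6) held 64.4% of theirs. In total RNA 7 of the 38 reached 10 FPKM and in footprints 15, where equal fragment numbers give 1.56-fold more FPKM. The shares of all rows that reached it were not computed. In such bulk libraries a gene that few cells express strongly cannot be told apart from one that all cells express weakly.

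**Figure D1:**
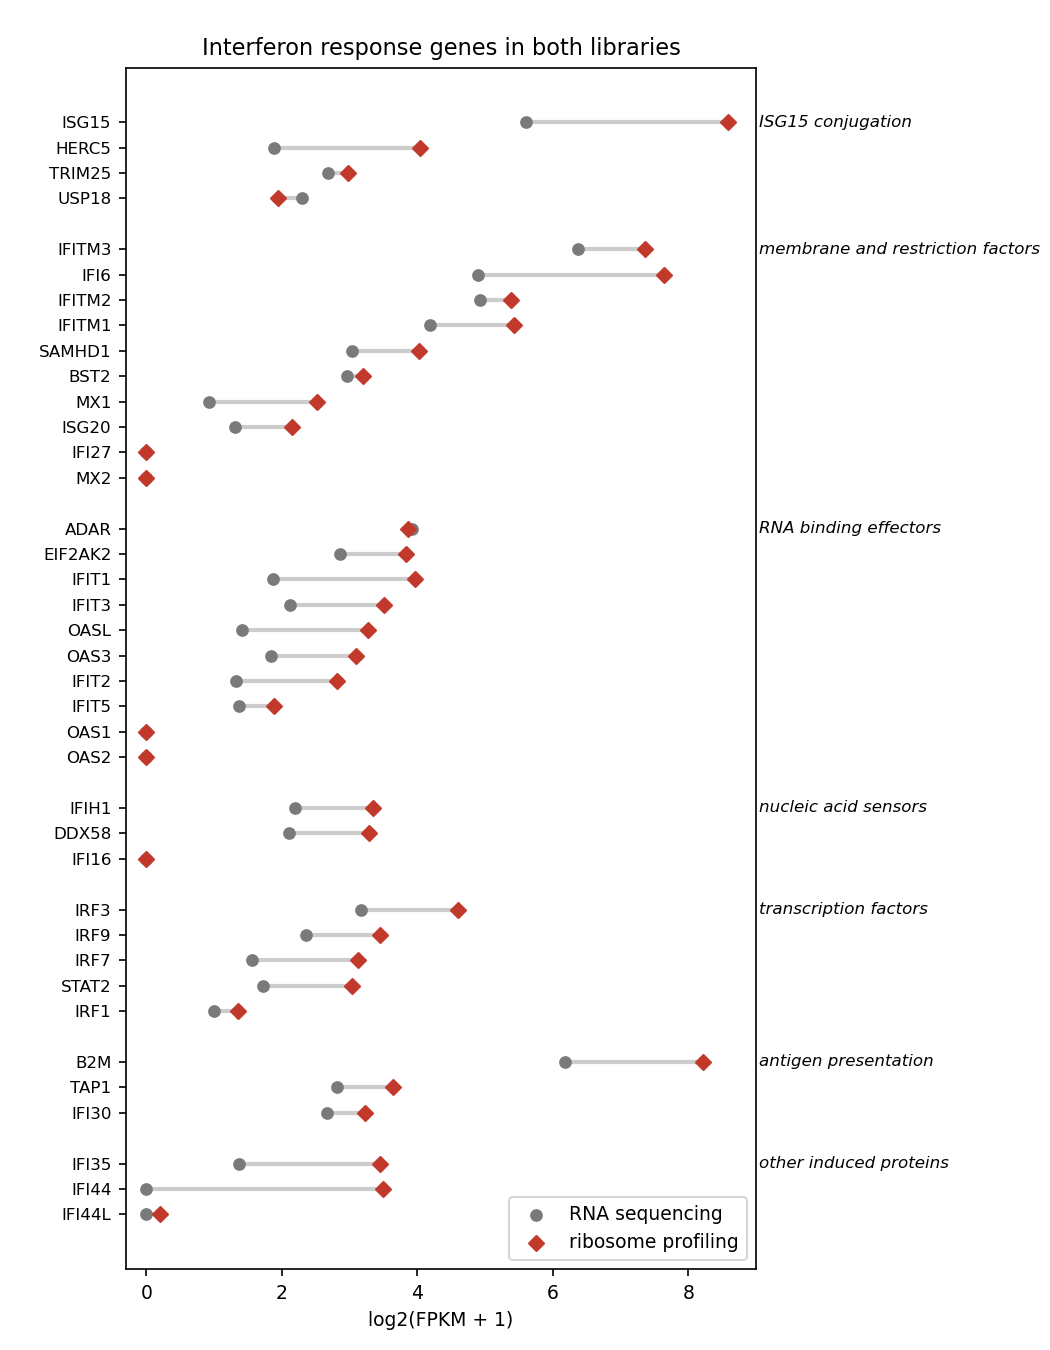
Level of each interferon response gene in the RNA sequencing library (grey circles) and the ribosome profiling library (red diamonds), as log2(FPKM + 1), 1 library per assay with no error bars, grouped by the role of the protein. The diamond lies to the right of the circle for every gene above 0 in both libraries except ADAR and USP18, and the widest distances between both symbols at high levels are those of ISG15, IFI6 and B2M.

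To set these values against other genes, each row got a log2 ratio of footprint FPKM to total RNA FPKM, with 1 FPKM added to each, from which the median over the rows used was subtracted, so that 0 stands for the median gene. With a mean of at least 10 FPKM over both libraries, 2734 rows were used, and the median gene itself was 1.31-fold higher in footprints. Of the 9 interferon response genes among them, 4 lay at least 2-fold above the median gene (ISG15, IFI6, B2M and IRF3), against 13.1% of all rows and 10.0% of the protein-coding rows. None of the 9 was at least 2-fold below it, against 19.7% of all rows. Their median was 0.85 on the log2 scale, 1.80-fold above the median gene, with quartiles of 0.60 and 1.66, while the quartiles of all rows were -0.73 and 0.59. SAMHD1 and IRF3 were under 10 FPKM in total RNA and were included through their footprint value, so this count is a description of the 9.

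Most of the group lies below that minimum, and a mean of at least 1 FPKM kept 32 of the 38 among 10853 rows. There the median gene was 0.897-fold in footprints relative to total RNA, and 31 of the 32 lay above it, all but USP18. At least 2-fold above it were 23 of the 32, against 15.5% of all rows and 14.7% of the protein-coding rows, and at least 4-fold above it were 8, against 3.16% of all rows. None was at least 2-fold below, against 19.6%. MX1, IRF1 and IFI44 were under 1 FPKM in total RNA and were included through footprints. IFI44, at 0 in total RNA, is among the 23 and the 8 only through the 1 FPKM added to both values. IFI35, also among the 8, had a smallest fragment pair of 4 to 1. With the minimum of 1 FPKM set on total RNA alone, a choice made after seeing the data, 22 of 29 lay at least 2-fold above the median gene, against 16.2%. The median used moved this count more: with the same 32 genes set against the median gene of the rows with a mean of at least 10 FPKM, also added after seeing the data, 13 were at least 2-fold above it, against 6.15%.

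**Figure D2:**
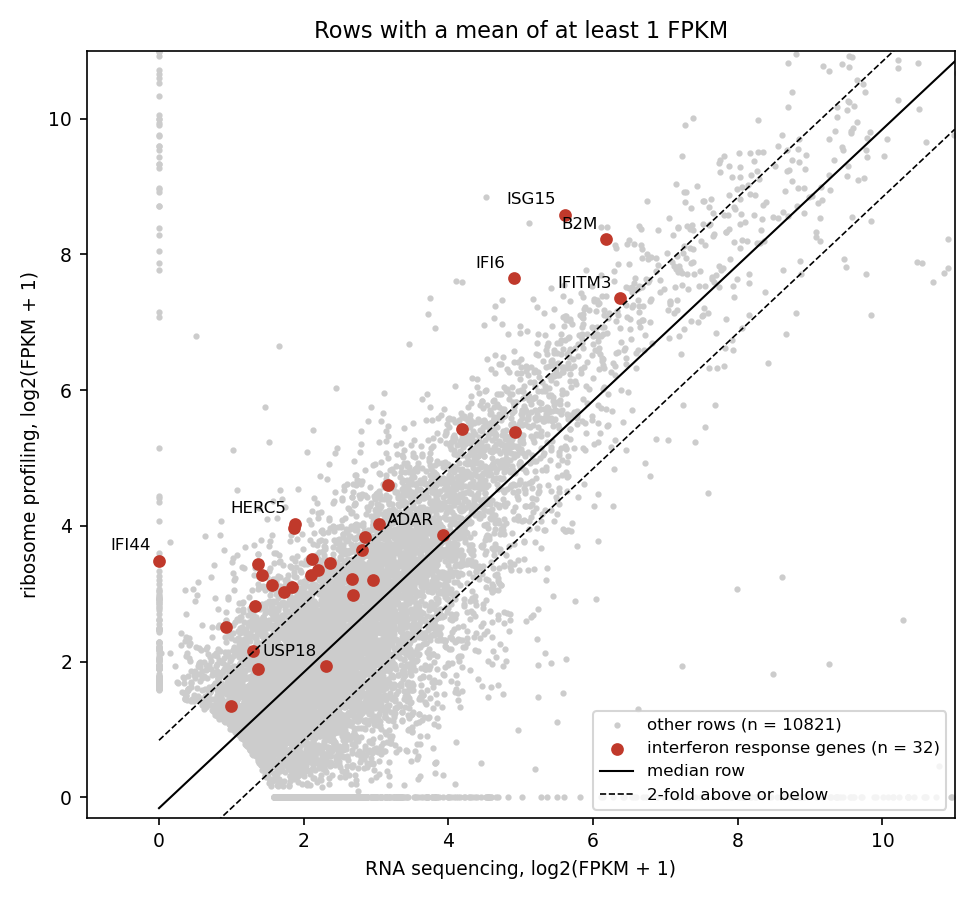
Each point is a row with a mean of at least 1 FPKM, by log2(FPKM + 1) in RNA sequencing (horizontal) and in ribosome profiling (vertical), with the 32 interferon response genes in red, the other 10821 rows in grey and 141 rows beyond the axis limits of 11 not drawn. The solid line is the median row and the dashed lines are 2-fold above and below it: 23 red points lie on or above the upper dashed line and none below the lower one.

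The level of a gene moves with its ratio, so the genes were also set against protein-coding rows of their own level. The median log2 ratio before centring was -0.45 in protein-coding rows with a mean of 1 to 3 FPKM, -0.15 from 3 to 10, 0.29 from 10 to 30 and 0.66 above 30. Relative to the median of their own level, 20 of the 32 genes were at least 2-fold higher, against 11.9% of the protein-coding rows, and 29 lay above it. From 3 to 10 FPKM, where most of the group lies, 14 of 19 genes were at least 2-fold higher, against 12.5% of the protein-coding rows of that level. The level is the mean of both libraries, so a high footprint value helps to set it. HERC5, IFIT1, IFIT2, OAS3, OASL, IRF7, STAT2, IFI35 and IFI44 were under 3 FPKM in total RNA and entered this level through footprints. All of them are among the 14, so this count is a description. Coding length moved with the ratio as well: at a mean of at least 1 FPKM, rows with under 500 nt of coding sequence had a median of 0.29, and the 6 interferon response genes among them 1.80. In rows with 500 to 1000 nt the median was 0.066 and that of 5 interferon response genes 0.71. In rows with 1000 to 2000 nt the median was 0.05 and that of 14 interferon response genes 1.57, and from 2000 nt it was -0.07 and, for 7 interferon response genes, 1.34. At a mean of at least 10 FPKM the 1 interferon response gene from 2000 nt, ADAR, was at -0.45, below the -0.0062 of its class. The part of level and coding length in the ratios was not tested.

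ISG15 is a ubiquitin-like protein that interferon induces and that is joined to other proteins, HERC5 is the ligase that joins it, TRIM25 is a ligase that also activates the RNA sensor RIG-I, and USP18 removes ISG15 and restrains the interferon receptor. ISG15 (chr1:948847-949919, hg19) had 47.8 FPKM in total RNA and 384 FPKM in footprints, the highest footprint value of the 38 genes. It lay 6.03-fold above the median gene of the rows with a mean of at least 10 FPKM and ranked 19 of the 2245 protein-coding rows from the top. Its log2 ratio in the authors' deposited table was 3.01 with a model standard error of 0.92 (p = 0.00107, q = 0.0674), and its smallest fragment pair, 103 in footprints to 20 in total RNA, gives an interval of 4.94 to 13.7 for the deposited fold. The coding sequence of ISG15 is short, at 498 nt, and fills 78.2% of its transcript.

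HERC5 had 2.68 FPKM in total RNA and 15.4 FPKM in footprints, and its fragment pair of 59 to 16 gives an interval of 3.27 to 10.7 for the deposited fold. TRIM25 had 5.40 and 6.87 FPKM, with an interval of 0.690 to 2.32. USP18 had 3.93 and 2.83 FPKM, with an interval of 0.224 to 2.03. The modifier and its ligase HERC5 were thus high in footprints, while the intervals of TRIM25 and USP18 both hold the 1.31-fold of the median gene. The log2 ratios of ISG15 and USP18 in the authors' deposited table differed by 3.48 (combined standard error 1.52, 95% interval 0.50 to 6.46). That interval rests on the model errors, and this pair was chosen after its values were seen.

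Among the proteins that act at membranes or restrict viruses, IFI6, a small protein of the endoplasmic reticulum and mitochondria, had 28.9 FPKM in total RNA and 199 FPKM in footprints. It lay at chr1:27992572-27998724 and was 5.12-fold above the median gene, ranking 24 of the 2245 protein-coding rows. Its log2 ratio in the authors' deposited table was 2.79 with a standard error of 0.90 (p = 0.00201, q = 0.104). IFI6 and ISG15 were the pair of highest ratios among the 9 genes with a mean of at least 10 FPKM.

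The IFITM proteins sit in cell and endosome membranes and hinder the fusion of viruses, and their genes lie next to each other on chr11 (IFITM2 at 308107-309410, IFITM1 at 313991-315272 and IFITM3 at 319673-320914, hg19). IFITM3 had the highest total RNA value of the 38 genes, 81.7 FPKM, and 163 FPKM in footprints, 1.52-fold above the median gene. IFITM1 had 17.2 FPKM in total RNA and 42.0 FPKM in footprints, 1.80-fold above the median gene. IFITM2 had 29.4 and 40.9 FPKM, 1.05-fold above it, and it lay below, at -0.10 on the log2 scale, relative to rows with a mean of at least 30 FPKM. These copies share much of their sequence, so their rows are uncertain, since the division of shared reads is not given in the sources used here. In the authors' deposited table the log2 ratios of IFITM1 and IFITM2 differed by 0.81 (95% interval -1.73 to 3.34) and those of IFITM3 and IFITM2 by 0.52 (95% interval -1.92 to 2.96), so the model errors do not separate them. IFI6 and IFITM3 differed there by 1.79 (95% interval -0.67 to 4.25).

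SAMHD1, which degrades the nucleotides that reverse transcription needs, had 7.24 FPKM in total RNA and 15.3 FPKM in footprints, with an interval of 1.38 to 3.29 for the deposited fold. BST2, or tetherin, which holds budding virus at the cell surface, had 6.77 and 8.21 FPKM, with an interval of 0.384 to 3.66. MX1, a GTPase that blocks influenza virus, had 0.900 and 4.72 FPKM, and the exonuclease ISG20 had 1.47 and 3.44 FPKM. All 8 genes of this group above 0 had the higher FPKM in footprints, against 46.8% of all rows above 0 in both libraries. By their smallest fragment pairs, BST2 (7 to 9) and IFITM2 (25 to 28) had fewer fragments in footprints. Of the 8, 6 lay at least 2-fold above the median gene at a mean of at least 1 FPKM, where 15.5% of all rows were. ISG20, one of the 6, was at 2.00-fold and its smallest fragment pair was 3 to 2. The paralog MX2 and the small membrane protein gene IFI27 were listed at 0.

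Of the proteins that bind viral RNA, ADAR edits adenosine to inosine in double-stranded RNA, EIF2AK2 (PKR) halts translation when it meets such RNA, the IFIT proteins hold RNA with foreign ends, and the OAS enzymes make the messenger that activates RNase L. ADAR had 14.1 FPKM in total RNA and 13.5 FPKM in footprints, which put it 1.37-fold below the median gene of the rows with a mean of at least 10 FPKM. It was the only one of the 9 genes in those rows to lie below the median gene, and at a mean of at least 1 FPKM it lay above, at 0.097 on the log2 scale. By the log2 ratios in the authors' deposited table, ISG15 exceeded ADAR by 3.07 (95% interval 0.75 to 5.39) and IFI6 exceeded it by 2.85 (95% interval 0.56 to 5.15), both pairs chosen after their values were seen. EIF2AK2 had 6.22 and 13.3 FPKM, and its log2 ratio in the authors' deposited table was 1.09 with a standard error of 0.73.

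All 4 IFIT genes had the higher FPKM in footprints, against 46.8% of all rows above 0 in both libraries. They lie side by side on chr10 (from IFIT2 at 91061706 through IFIT3 at 91087602 and IFIT1 at 91152303 to IFIT5 at 91174325). IFIT1 had 2.66 FPKM in total RNA and 14.7 FPKM in footprints, with 2.47 as log2 ratio and 0.91 as its error in the authors' deposited table (p = 0.00672, q = 0.188). IFIT3 had 3.34 and 10.4 FPKM. IFIT2 had 1.52 and 6.04 FPKM, with an interval of 1.78 to 9.79 for the deposited fold. IFIT5 stood lowest of these 4 in footprints, at 1.59 and 2.71 FPKM and an interval of 0.687 to 4.26. The difference between IFIT1 and IFIT5 in the authors' deposited table, 1.70 on the log2 scale, had a 95% interval of -1.07 to 4.47 from the model errors.

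The OAS genes split by detection. OAS3 had 2.59 FPKM in total RNA and 7.54 FPKM in footprints, with an interval of 1.50 to 5.87 for the deposited fold, and OASL, which lacks the enzyme activity, had 1.67 and 8.65 FPKM. OAS1 and OAS2, the neighbours of OAS3 on chr12, were listed at 0 in both libraries. Of the 8 genes of this role above 0, 6 lay at least 2-fold above the median gene at a mean of at least 1 FPKM, all but ADAR and IFIT5, against 15.5% of all rows.

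The RNA sensors DDX58 (RIG-I) and IFIH1 (MDA5), helicases that detect viral RNA in the cytoplasm, had nearly the same values. DDX58 had 3.29 FPKM in total RNA and 8.74 FPKM in footprints, with an interval of 1.62 to 4.45 for the deposited fold. IFIH1 had 3.59 and 9.16 FPKM, with an interval of 1.14 to 5.98. Their log2 ratios in the authors' deposited table differed by 0.058 (95% interval -2.37 to 2.49), which leaves room for a difference of several fold. IFI16, a sensor of DNA, was listed at 0 in both libraries.

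All 5 transcription factors of the response had the higher FPKM in footprints, at low levels, against 46.8% of all rows above 0 in both libraries. IRF3, which is present before infection and turns on the interferon genes once phosphorylated, had 7.96 FPKM in total RNA and 23.3 FPKM in footprints, 2.07-fold above the median gene of the rows with a mean of at least 10 FPKM. Its locus in the table overlaps BCL2L12, which had 2.59 and 4.98 FPKM, so the 2 rows may share reads. IRF7, which amplifies the interferon genes, had 1.96 and 7.75 FPKM. STAT2 had 2.31 and 7.19 FPKM and IRF9, its partner at the response element, 4.13 and 9.96 FPKM, with an interval of 1.07 to 5.69 for the deposited fold of IRF9. IRF1 had 0.993 and 1.55 FPKM, the ratio of an equal number of fragments in both libraries.

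B2M is the light chain of every class I molecule, TAP1 is a subunit of the transporter that loads these with peptides, and IFI30 reduces disulfide bonds of antigens. B2M had 71.3 FPKM in total RNA and 297 FPKM in footprints, 3.15-fold above the median gene, ranking 55 of the 2245 protein-coding rows. Its log2 ratio in the authors' deposited table was 2.06 with a standard error of 0.96 (p = 0.0319, q = 0.294). TAP1 had 6.01 and 11.5 FPKM, in a row that lies on an alternative haplotype of chr6 and overlaps PSMB8. IFI30 had 5.34 and 8.33 FPKM, again the ratio of equal fragment numbers. B2M was far above the other members of this role in both libraries, but its log2 ratio in the authors' deposited table exceeded that of TAP1 by 1.13 with a 95% interval of -1.40 to 3.66.

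Of the 3 remaining genes, IFI35 had 1.59 FPKM in total RNA and 9.90 FPKM in footprints. IFI44 was listed at 0 in total RNA and had 10.2 FPKM in footprints (p = 0.0169 and q = 0.223 in the authors' deposited table). IFI44L, its neighbour on chr1, was listed at 0 and had 0.153 FPKM. No fold is given for IFI44 or IFI44L, since a value of 0 in the table can be an estimate that gave all reads to another row. The counts above at a mean of at least 1 FPKM include IFI44 by its ratio with 1 FPKM added.

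None of these genes was called changed between the libraries in the authors' deposited table, where 19 of the 38 had the status OK, the rows tested there. Of all rows with that status, 1.30% were called. The smallest adjusted value of the 19, the q of 0.0674 of ISG15, missed the threshold of 0.05. Of the 19, 7 had an unadjusted p under 0.05 in the authors' deposited table (ISG15, IFI6, HERC5, IFIT1, IFI44, B2M and IRF3), all 7 higher in footprints, against 4.21% of the rows with status OK in that direction. IFI44, at 0 in total RNA, could differ in that direction alone. HERC5 and IFIT1 had status OK at 2.68 and 2.66 FPKM in total RNA, while TRIM25 and IFI30, at 5.40 and 5.34 FPKM, had status NOTEST. High footprints may thus have helped genes into the 19, and the count is a description. The standard errors of the genes with status OK and a finite ratio in the authors' deposited table were 0.73 to 1.40 with a median of 0.91, so a single gene needed a several-fold ratio to stand out. Of the 14 genes with a fragment pair large enough for an interval, 6 had the whole interval above the 1.31-fold of the median gene. These were ISG15, HERC5, SAMHD1, IFIT2, OAS3 and DDX58, while 8 intervals held that fold and none lay below. The 1.31-fold is that of rows with a mean of at least 10 FPKM, and most of the 14 genes lie under this mean. At a mean of at least 1 FPKM the median gene was at 0.897-fold, and the intervals of IFITM1, IFIH1 and IRF9 also lay wholly above that. The share of all rows with an interval above either fold was not computed.

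**Figure D3:**
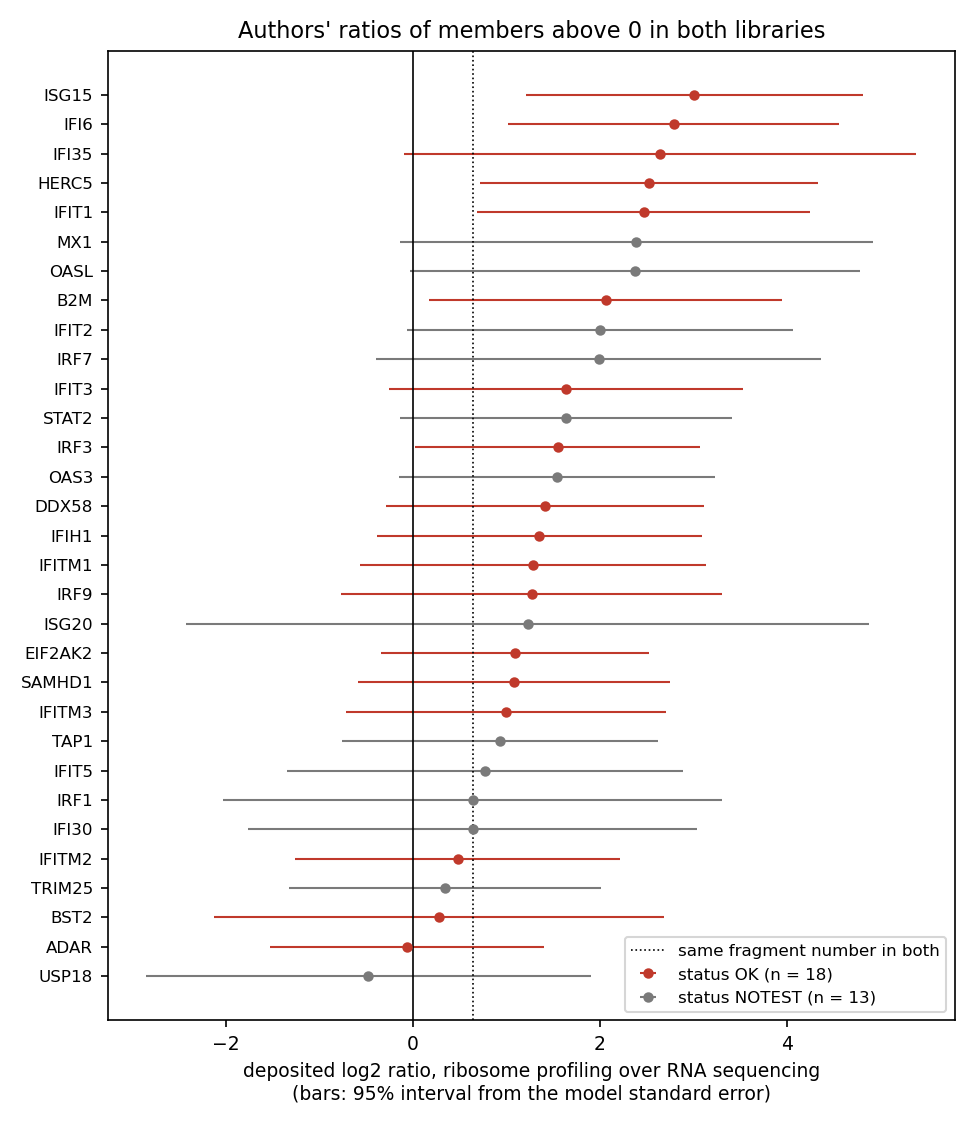
Log2 ratio of footprints over total RNA in the authors' deposited table for the 31 interferon response genes above 0 in both libraries, with bars of the 95% interval from the model standard errors, genes of status OK in red and of status NOTEST in grey. The solid line is an equal FPKM and the dotted line the ratio of equal fragment numbers, 1.56-fold. The bars of 6 genes (ISG15, IFI6, HERC5, IFIT1, B2M and IRF3) lie wholly above 0, and those of ADAR and USP18 are centred below it. The share of all rows with such a bar above 0 was not computed.

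Genes of the same pathway outside the 38 were taken from lists by function and read at a mean of at least 1 FPKM, where the quartiles of all rows were -0.76 and 0.67. Of 38 other interferon-induced genes, 31 lay above the median gene, 17 at least 2-fold above and 1 at least 2-fold below, with a median of 0.94. PHF11, DTX3L, SAMD9, TDRD7 and CCL5 were under 1 FPKM in total RNA and were included through footprints. All but CCL5 are among the 17, so this count is a description. The most abundant of these other interferon-induced genes were LAP3, an aminopeptidase, with 15.2 FPKM in total RNA and 46.5 FPKM in footprints, WARS, the tryptophanyl-tRNA synthetase, with 14.6 and 29.9 FPKM, and LGALS3BP, a secreted glycoprotein, with 5.93 and 23.5 FPKM. Of those with a mean of at least 10 FPKM the lowest ratio was that of PML, which builds nuclear bodies, at 8.74 and 13.4 FPKM, and the highest that of the scramblase PLSCR1, at 4.42 and 21.5 FPKM. The 1 gene at least 2-fold below was LY6E, a surface protein, with 15.5 and 3.57 FPKM, named after its values were seen.

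Of 18 genes of antigen processing and presentation, 15 lay above the median gene, 8 at least 2-fold above and none at least 2-fold below, with a median of 0.60. The chaperone CALR had 118 FPKM in total RNA and 326 FPKM in footprints. The class I heavy chains HLA-B and HLA-C had 87.0 and 182 FPKM and 63.7 and 120 FPKM, in a family whose rows share sequence. Among the genes with a mean of at least 10 FPKM the ratio was lowest for HLA-F, at 25.1 and 18.4 FPKM, and highest for PDIA3, a disulfide isomerase of peptide loading, at 23.0 and 78.8 FPKM.

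At a mean of at least 1 FPKM, the medians of the genes that carry the signal to these targets were nearer to the median gene. Of 9 genes on a list of receptors and kinases, 6 lay above it, 2 at least 2-fold above and 1 at least 2-fold below, with a median of 0.16. The kinase JAK1 had 6.74 FPKM in total RNA and 6.78 FPKM in footprints, and IFNGR1, a chain of the interferon gamma receptor, 4.05 and 9.02 FPKM. Of 9 sensing adaptors and kinases, 4 lay above the median gene, 1 at least 2-fold above and 3 at least 2-fold below, with a median of -0.43. The DNA sensor MB21D1 (cGAS) had 11.1 and 14.1 FPKM, the kinase TBK1 4.23 and 5.997 FPKM and the factor IRF2 2.39 and 6.23 FPKM. Of 14 negative regulators of the pathway, 6 lay above the median gene, with a median of -0.058. The ligase TRIM27 had 15.6 and 10.3 FPKM, the phosphatase PTPN11 13.04 and 11.1 FPKM and the SUMO ligase PIAS4 10.8 and 8.45 FPKM.

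Lists of related but separate systems are given for scale. Of 17 NF-kB targets, 8 lay above the median gene, 2 at least 2-fold above and 6 at least 2-fold below, with a median of -0.18. The adhesion molecule ICAM1 had 10.4 FPKM in total RNA and 31.5 FPKM in footprints, the stress-induced IER3 16.6 and 23.3 FPKM, the subunit precursor NFKB2 13.1 and 21.9 FPKM and the chemokine CXCL2 21.6 and 4.32 FPKM. Of 14 ubiquitin and ubiquitin-like modifiers, a family of short proteins like ISG15, 13 lay above the median gene, 1 at least 2-fold above and none at least 2-fold below, with a median of 0.56. The polyubiquitin gene UBB had 734 and 1220 FPKM, and FAU, which also encodes a ribosomal protein, 137 and 140 FPKM. Among the modifiers with a mean of at least 10 FPKM the ratio was highest for UBL5, at 57.8 and 146 FPKM. With 1 library per assay, differences between these lists were not tested, and neither was the part of level or coding length in them.

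**Figure D4:**
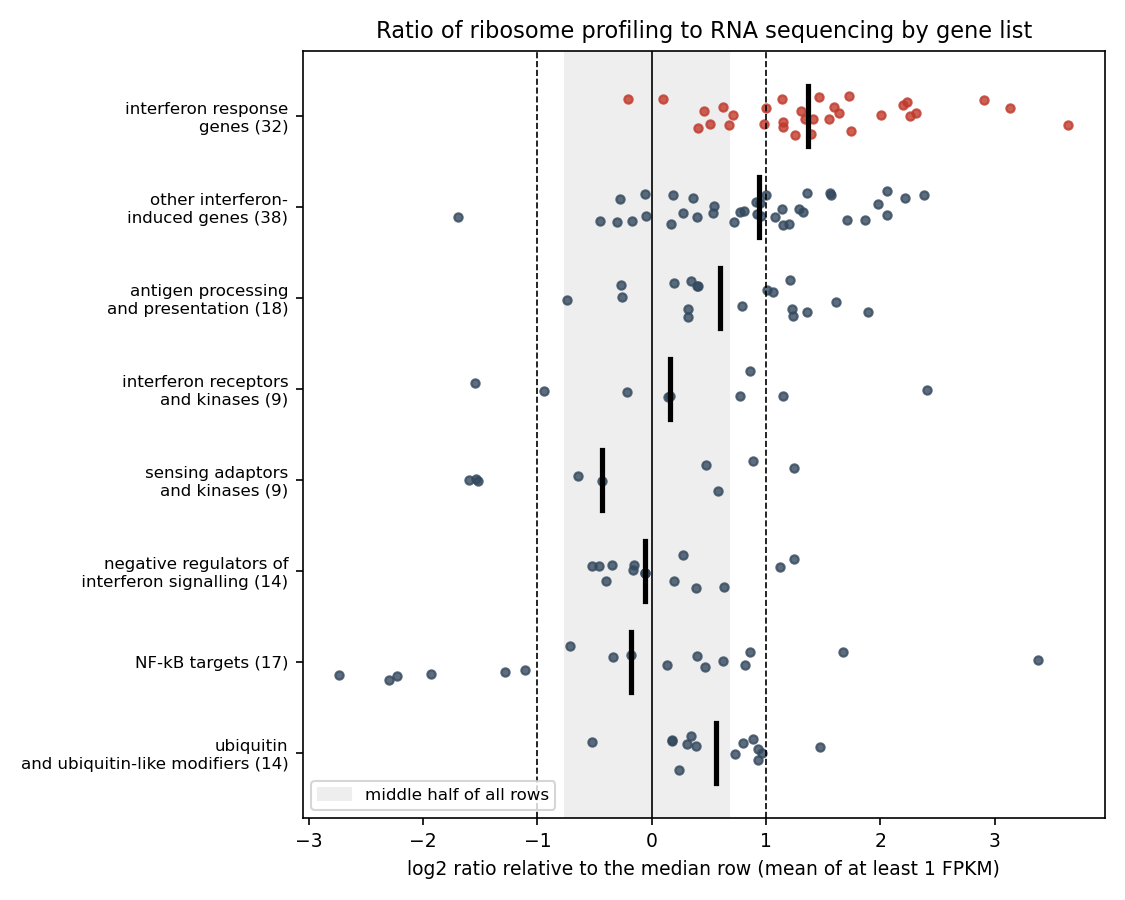
Log2 ratio of each gene with a mean of at least 1 FPKM relative to the median row (0), by list, with the number of genes in brackets, a bar at each list's median, dashed lines at 2-fold and a grey band between the quartiles of all rows. The interferon response genes (red) have a median of 1.37 and the other interferon-induced genes 0.94, both right of the grey band, while the medians of the receptors and kinases, sensing adaptors, negative regulators, NF-kB targets, antigen processing genes and ubiquitin-like modifiers lie inside it.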

How the data were processed

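Total RNA and ribosome-protected fragments of SW13 cells, grown in medium with 10% serum, were read at 50 nt from both ends, per the labels' protocols. The authors' deposited table gives FPKM for each library and, for each row, their log2 ratio (footprints over total RNA), its statistic with p-value and q-value, a call and a status. Named in the submitters' processing notes are bedtools 2.16.1, SAMtools 0.1.18, Bowtie2 2.0.0.6 and TopHat2 2.0.8b, with the builds hg19 and mm10. Not given in the sources used here are the program that wrote the table, its handling of shared reads and the read depth. Since FPKM divides by library size and length, folds hold no absolute level.

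Ratios used a pseudocount of 1 FPKM, which understates the ratios of low genes, and rows of status FAIL or HIDATA were left out. Dividing the absolute deposited log2 ratio by the absolute statistic gave its standard error. It is a model error with no spread between cultures. Intervals of differences add these errors as if independent. With 1 library per assay no p-value was computed.

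The members and gene lists were chosen with earlier results of these data known. The naming rule took every member with a mean of at least 1 FPKM and, in each list, the 3 genes of highest mean and those of highest and lowest ratio at a mean of at least 10 FPKM. Some list genes that the rule took are not reported here. Table starts were written 1 higher, counting the first base as 1. RefSeq promoters (GRCh38.p14) matched 30 of 38 members. Coding lengths came from GENCODE and were found for all members and for 95.9% of the protein-coding rows with a mean of at least 10 FPKM. Protein sequences were not used here. The ratio and counting steps were tested on simulated data. Python 3.11.15, numpy 2.4.6, pandas 2.3.3, scipy 1.17.1 and matplotlib 3.10.9 were used. The alternatives were other pseudocounts (0.1 and 5), other filters, status OK rows, no centring, and genes left out.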

Additional observations from a re-analysis of the deposited data

How the results depend on the processing

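All 85 values of single members recomputed under the alternatives moved by less than their deposited standard error, or by less than 1.5 times where there was none, but 2 changed side of the median gene. ADAR went from -0.45 to 0.097 at a mean of at least 1 FPKM and 0.22 with no filter, and IFITM2 from 0.076 to -0.10 at a mean of at least 30 FPKM. A change of filter or centring shifts all members by the same amount. That amount stayed under the smallest standard error of the recomputed members (0.75, ADAR), so this yardstick says little about single members. The count of members at least 2-fold above the median gene, 4 of 9 in the main analysis, was 23 of 32 at a mean of at least 1 FPKM, 24 of 33 with no filter and 2 of 7 without ISG15 and IFI6; with alternatives added after seeing the data it was 22 at a total RNA FPKM of at least 1 and 13 at a mean of at least 1 FPKM with the median of the rows of at least 10. The filters differ in how many members they keep. The members' median log2 ratio of 0.85 was 1.48 at a mean of at least 30 FPKM, 1.47 with no filter and 1.50 at a total RNA FPKM of at least 1. It ranged from 0.60 to 1.50, and no member lay at least 2-fold below the median gene in any alternative run. The median of receptors and kinases, 1.86 from 1 gene at a mean of at least 10 FPKM, was 0.16 at a mean of at least 1 FPKM and 0.29 with no filter. That of negative regulators, -0.77 from 2 genes, was -0.058 at a mean of at least 1 FPKM and 0.066 with no filter. No paired analysis was possible because each assay has 1 library. The medians of NF-kB targets (-0.48 to 0.47), sensing adaptors (-0.43 to 0.32) and negative regulators (-0.82 to 0.066) changed sign between alternatives, so none of these lists has a direction here. Depth limits single members: 8 of the 14 fragment intervals hold the 1.31-fold of the median gene at a mean of at least 10 FPKM. Fewer hold the 0.897-fold of the median gene at a mean of at least 1 FPKM.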
